A study of Danio rerio with 12 samples.

Results

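The TGF-beta and BMP signalling genes described here are 53 zebrafish genes chosen by name, which encode ligands, receptors, Smad proteins, secreted antagonists and Id target genes. Of these, 49 were listed in the count table under their own symbols and 46 passed the expression filter and were tested, among 19145 genes tested of 22158 in the table. The tested members were 13 ligands, 15 receptors, 10 Smads, 4 antagonists and 4 Id genes. Bulk RNA-seq had been performed on 12 libraries, 2 from each of 6 groups, each library being made from the tissue of 20 pooled adult zebrafish aged 6 months to 1.5 years. The wild-type (WT, labelled AB/TU) groups were the bulbus arteriosus (BA), the vessel that receives blood from the ventricle, the sinus venosus (SV), the venous inflow chamber upstream of the atrium, and both muscular chambers, atrium and ventricle. The 2 mutant groups were the enlarged SV and the ventricle of nr2f1a aco fish. In this allele part of the 5′ untranslated region is deleted from nr2f1a, a nuclear receptor gene needed for atrial muscle, and the study describes the adult mutant hearts as effectively lacking an atrium. The titles and genotype labels of the 4 mutant libraries name the aco mutant while their tissue labels say WT, and they were used as mutant. As nr2f1a is still transcribed from this allele, its level does not check the genotype.

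Ligands of the TGF-beta superfamily bind pairs of type I and type II serine/threonine kinase receptors, which phosphorylate receptor-regulated Smads. TGF-beta and activin receptors act through Smad2 and Smad3, and BMP receptors through Smad1, Smad5 and Smad9. Both classes of Smads join Smad4 and enter the nucleus, while Smad6 and Smad7 inhibit the pathway and noggin, chordin, gremlin and follistatin trap ligands outside the cell. In the heart and vessels, TGF-beta signalling is known for its part in vessel wall matrix and smooth muscle, and BMP signalling for valve, inflow and chamber development. The id genes, which encode inhibitors of bHLH transcription factors, are common targets of BMP signalling.

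Library totals ran from 28325098 to 60532949 counts, so that 1 read corresponded to 0.0229 to 0.0294 CPM (counts per 1e6 of the TMM-normalized library). The summed CPM of 6 smooth muscle markers was 9935 and 12518 in the BA, with 3343 and 2594 for the WT SV, 1204 and 5635 for the aco SV, and 98.3 to 552.1 in the atrium and ventricles of either genotype. The summed CPM of 6 cardiomyocyte markers was 30825 to 127856 in the atrium and ventricles and 492.3 to 2615 in the BA and both SV groups. Vessels and chambers thus separated by these sums, though not by every single marker. The CPM of cnn1b was 44.8 and 20.4 in the WT SV and 38.4 and 65.0 in the WT ventricle. That of acta2 was 409 in aco SV replicate 1 and 445 in WT atrium replicate 1. The SV pools held RNA of other organs. A list of 6 enterocyte markers summed to 1423 and 1479 CPM in the WT SV and to 5.20 CPM or less elsewhere. A list of 4 hepatocyte markers summed to 3372 CPM in aco SV replicate 1 against 327.0 in replicate 2. Their sum was 308.1 and 485.8 CPM for the WT SV libraries. It was 309.2 and 341.0 CPM for the BA libraries, where tfa alone had 306.7 and 339.6. The sum by itself thus did not set the SV apart from the BA. The markers fabp10a, apoa2 and fgb did, with 12.7 CPM or more in every SV library and 2.20 CPM or less in the BA. Erythrocyte markers (3 found of 4) summed to 42390 and 82517 CPM in the WT SV and to 9450 and 19181 in the BA. They summed to 24540 and 23301 CPM in the atrium and to 3299 and 5330 in the WT ventricle. Expression in bulk tissue cannot tell apart fewer cells of a type and less RNA per cell, and the part of these tissue differences in cell makeup in the results below was not tested. The quasi-likelihood test of edgeR was run in 1 model of all 12 libraries, and a gene is termed called when its adjusted p (Benjamini-Hochberg over all 19145 genes) was below 0.05. Log2 fold changes are given ± their standard error. With 2 libraries per group, the libraries of 2 compared groups lay apart in a given direction for 23% to 39.1% of all genes. A lack of overlap was therefore common. A call is described as stable when it was also made in each of 6 alternative analyses that tested the gene and with each library of the compared groups left out.

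Members of the pathway were more often at their highest in the BA than in the other WT tissues. The BA had the highest mean CPM of the 4 WT tissues for 24 of 46 members, compared with 26.3% of all genes. Between the WT BA and WT SV 10 members were called, where 18.1% of all genes were. In the BA 9 of them were higher (8.69% of all genes) and 1 was lower (9.37%). Between the WT BA and WT atrium 13 members were called (18.6% of all genes), 9 of them higher (8.46%) and 4 lower (10.1%). Between the WT BA and WT ventricle 17 members were called (26.7% of all genes), 13 of them higher (13.8%) and 4 lower (12.9%). The SV differed from the atrium in 9 members (20.6% of all genes), with 4 higher (9.61%) and 5 lower (10.9%). It differed from the ventricle in 20 members (35.7%), with 11 higher (19.4%) and 9 lower (16.2%). The atrium and ventricle differed in 5 members (5.11%), with 4 higher in the atrium (3.12%) and 1 lower (1.98%). The median log2 fold change of the members was 0.74 between the BA and SV, 0.54 between the BA and atrium and 0.84 between the BA and ventricle, whereas the medians of all genes were -0.06, -0.01 and 0.16. Between the SV and ventricle the median was 0.21 for the members and 0.21 for all genes. These counts depended on single libraries. How many of all genes were called without each library, which leaves 1 in its group, was not counted. Without WT SV replicate 2 the BA and SV differed in 2 members. The BA and atrium differed in 5 without WT atrium replicate 1 and in 7 without WT BA replicate 1 or WT atrium replicate 2. Without WT ventricle replicate 1 the BA and ventricle differed in 9 and the SV and ventricle in 9, and without either WT SV library the latter differed in 12. The SV and atrium differed in 1 to 4 without any 1 library. The atrium and ventricle differed in 0, 3 and 1 without WT atrium replicate 1, WT atrium replicate 2 and WT ventricle replicate 1.

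**Figure D1:**
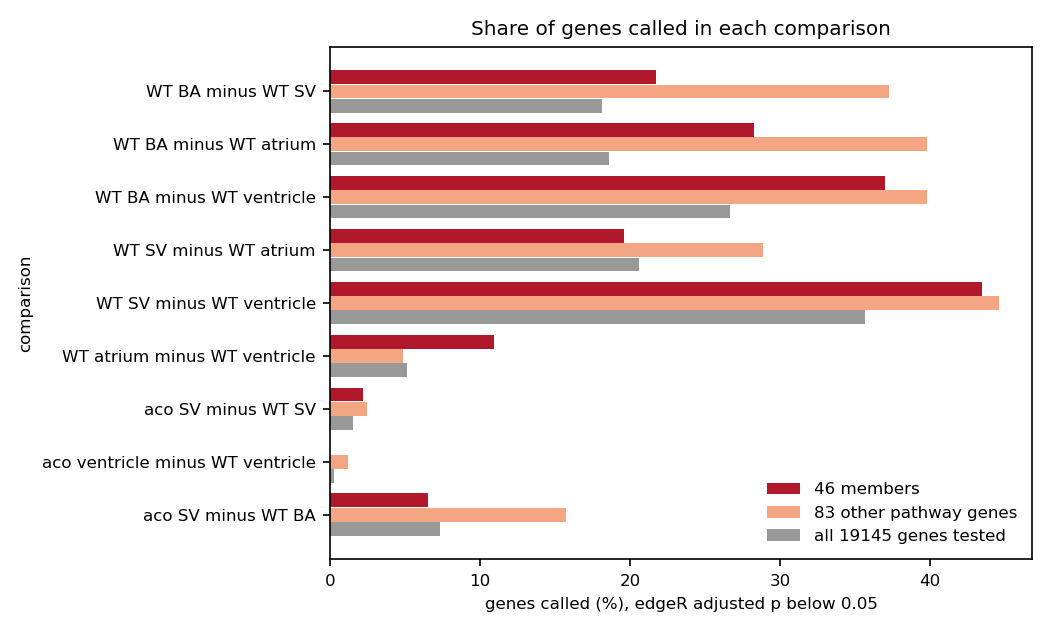
The bars give the percentage of genes called (edgeR adjusted p below 0.05) in each comparison, for the 46 members, for 83 other genes of the pathway and for all 19145 genes tested. The share of members was highest in the SV against ventricle comparison, at 43.5%, where 35.7% of all genes were called. It was 37.0% in the BA against ventricle comparison, where 26.7% of all genes were called, and 19.6% in the SV against atrium comparison, where 20.6% were.

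**Figure D2:**
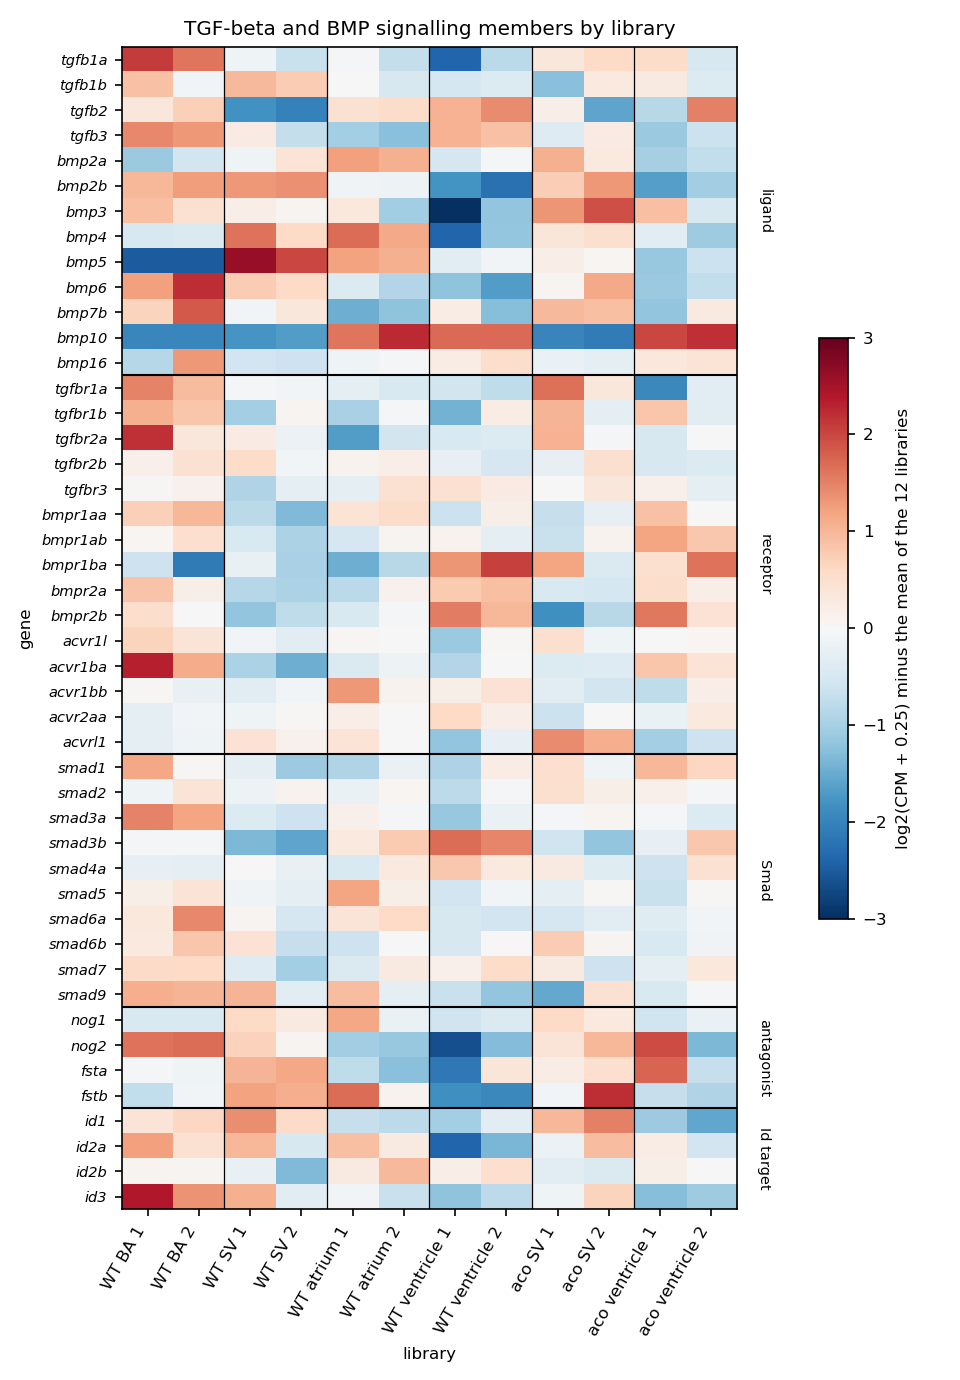
Each row is a tested member, grouped by role, and each column a library, labelled with its group and replicate number. Colour gives log2(CPM + 0.25) minus the mean of the 12 libraries, red being higher and blue lower, with the scale ending at 3 in either direction. The bmp10 row is blue in the BA and SV and red in the chambers, and the bmp5 row is darkest blue in the BA and darkest red in the WT SV.

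Of the 46 members, 29 were called in at least 1 of the 6 comparisons between WT tissues, as were 49.4% of all genes. All 4 WT BA and SV libraries lay above all 4 WT chamber libraries for 6 members (bmp2b, bmp6, tgfbr1a, tgfbr2a, nog2 and id1), an arrangement found for 8.86% of all genes, and below them for 4 members (bmp10, acvr1bb, smad3b and id2b), as for 13% of all genes. In all 4 comparisons of the BA or SV with a chamber, bmp6 and id1 were called higher (1.69% of all genes) and bmp10 lower (5.87%).

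The TGF-beta ligand tgfb3 had the highest mean level per length of all ligands in every group, in the normalized values of the authors, which were read as FPKM because each is the count divided by 1 factor per gene and 1 per library, and whose gene factor was taken to be the length. It made up 38.1% to 78.6% of the summed ligand FPKM in single libraries, and bmp16 exceeded it only in aco ventricle replicate 1, at 40.7%. The mean FPKM of tgfb3 was 127 ± 13.6 in the BA, 95.5 ± 14.1 in the ventricle, 46.6 ± 22.2 in the SV and 21.9 ± 3.30 in the atrium (SD, n = 2). Its CPM was 271 and 248 in the BA, 205 and 184 in the ventricle, 118 and 61.3 in the SV and 48.9 and 42.2 in the atrium. The 4 WT groups thus did not overlap. The BA exceeded the atrium 6.04-fold (log2 2.59 ± 0.35, adjusted p = 0.000464) in a stable call. The BA exceeded the SV 2.87-fold (adjusted p = 0.00974), a call lost without WT SV replicate 2 (log2 1.07 to 2.03 with 1 library left out). The atrium was 4.18-fold below the ventricle (adjusted p = 0.00821), which was lost without either atrium library (log2 -2.24 to -2.0). The SV was called above the atrium (adjusted p = 0.0403) and below the ventricle (adjusted p = 0.0381). Those calls were lost without WT SV replicate 1 or either atrium library (log2 0.55 to 1.48) and without WT SV replicate 2 or either ventricle library (log2 -1.52 to -0.60), the first also without the RUVs factor and the second with DESeq2 size factors. The BA and ventricle were not called different.

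The other TGF-beta ligands were at a lower level and differed in where they were high. Expression of tgfb1a was 12.3 and 8.71 CPM in the BA, 2.42 and 1.61 in the SV, 2.60 and 1.55 in the atrium and 0.319 and 1.44 in the ventricle, so both BA libraries lay above all others. It was 12-fold higher in the BA than in the ventricle (log2 3.59 ± 0.68, adjusted p = 0.0024), which was stable as a call but not in size (log2 2.74 without WT ventricle replicate 1 and 5.08 without replicate 2). The BA was also called above the SV and the atrium (adjusted p = 0.0235 and 0.0325). These calls were lost without WT BA replicate 1 or either library of the other tissue (log2 1.78 to 2.84). For tgfb2, the SV had 0.252 and 0.186 CPM, compared with 1.98 and 2.65 in the BA, 2.18 and 2.36 in the atrium and 3.37 and 4.46 in the ventricle. The SV alone was low. It was 19.5-fold below the ventricle (log2 -4.28 ± 0.97, adjusted p = 0.00585), a call lost without WT SV replicate 2 (log2 -4.57 to -4.03). It was also called below the BA and the atrium (adjusted p = 0.0279 and 0.0234). These calls were lost without WT BA replicate 2, either SV library or either atrium library (log2 3.10 to 3.68 for the BA minus SV and -3.76 to -3.21 for the SV minus atrium). The second copy tgfb1b had 5.74 and 4.96 CPM in the SV and 1.87 and 2.06 in the ventricle (adjusted p = 0.0436), and this call was lost without any 1 of the 4 libraries (log2 1.15 to 1.76), without the RUVs factor and without the expression filter.

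**Figure D3:**
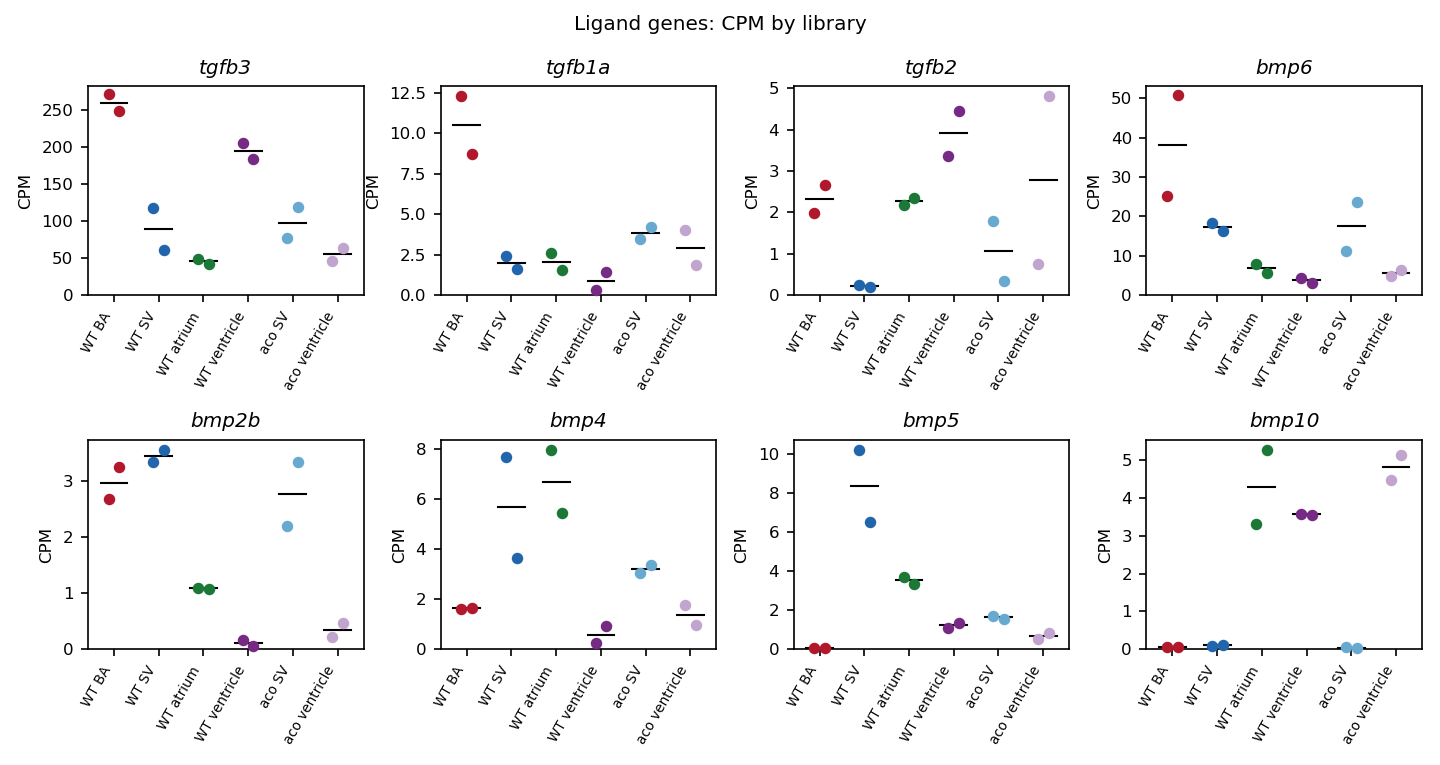
Points give the CPM of single libraries and black lines the mean of the 2 libraries in each of the 6 groups, for 8 ligand genes, on linear axes that start at 0 and differ between panels. The panel of bmp5 shows both BA libraries near 0 and both WT SV libraries at 6.54 CPM or above, and that of bmp10 shows all BA and SV libraries near 0.

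Among the BMP ligands, bmp5 and bmp10 separated the tissues most widely, and in different ways. Both genes encode BMP ligands of vertebrate heart and mesenchyme, Bmp10 being made by trabecular heart muscle of the mouse embryo. The level of bmp5 was 10.2 and 6.54 CPM in the SV, 3.71 and 3.35 in the atrium and 1.11 and 1.35 in the ventricle, while each BA library held 2 reads (0.0544 and 0.0520 CPM). Its levels followed the order SV, atrium, ventricle and BA with no overlap. The ratio of the SV to the BA was 158 (95% counting interval 61.4 to 581.3), that of the atrium to the BA 66.4 (25.7 to 245.6) and that of the ventricle to the BA 22.9 (8.64 to 85.8). All 3 differences were stable calls (adjusted p = 8.09e-05, 0.000106 and 0.000344). The SV also exceeded the ventricle 6.89-fold (log2 2.78 ± 0.47, adjusted p = 0.00103, stable). These intervals cover counting error only.

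Expression of bmp10 was 3.30 and 5.28 CPM in the atrium and 3.59 and 3.55 in the ventricle, compared with 4 and 5 reads (0.0915 and 0.116 CPM) in the SV libraries and 2 reads in each BA library. The chambers and the vessels thus did not overlap. The ratio to the BA was 80.1 in the atrium (95% counting interval 31.0 to 295.6) and 67.2 in the ventricle (25.9 to 248.3). The SV was 41.5-fold below the atrium (log2 -5.37 ± 0.56, adjusted p = 0.000162) and 35.8-fold below the ventricle (log2 -5.16 ± 0.56, adjusted p = 9.14e-05). All 4 calls were stable. The level of bmp10 went with the cardiomyocyte markers given above, and the part of that in the result was not tested.

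Of the other BMP ligands, bmp6, bmp2b and bmp3 were called higher in both the BA and the SV than in the ventricle. The CPM of bmp6 was 25.3 and 50.8 in the BA, 18.3 and 16.4 in the SV, 7.94 and 5.73 in the atrium and 4.47 and 3.17 in the ventricle. Its levels followed this order without overlap between groups, and the BA and SV were not called different. The BA exceeded the atrium (6.20-fold, log2 2.63 ± 0.39, adjusted p = 0.000806) and the ventricle (11.5-fold, log2 3.53 ± 0.41, adjusted p = 0.000133), and the SV exceeded the ventricle (5.31-fold, log2 2.41 ± 0.39, adjusted p = 0.000829), all 3 stable. Without WT BA replicate 2 the log2 values of the BA were 2.0 relative to the atrium and 2.88 relative to the ventricle. Its call in the SV against the atrium (2.86-fold, adjusted p = 0.015) was lost without WT SV replicate 1, either atrium library (log2 1.39 to 1.58) or the RUVs factor. One of the copies of the BMP2 gene, bmp2b, had 2.69 and 3.25 CPM in the BA, 3.34 and 3.56 in the SV, 1.1 and 1.07 in the atrium and 0.172 and 0.0587 in the ventricle, where it rested on 7 and 2 reads. The ventricle was lowest and the BA and SV highest. It was 29.4-fold higher in the BA (log2 4.88 ± 0.62, adjusted p = 0.000227) and 35.0-fold higher in the SV (log2 5.13 ± 0.63, adjusted p = 0.00016) than in the ventricle, both stable. The log2 values became 5.48 and 5.72 without WT ventricle replicate 1 and 4.16 and 4.39 without replicate 2. The other copy, bmp2a, was highest in the atrium at 1.15 and 0.991 CPM, against 1 and 6 reads (0.0272 and 0.156 CPM) in the BA (adjusted p = 0.0219). This call was lost without WT BA replicate 1 or either atrium library (log2 -5.25 to -2.90).

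For bmp4, a BMP of the developing inflow and valves, CPM was 7.71 and 3.66 in the SV, 7.99 and 5.44 in the atrium, 1.6 and 1.66 in the BA and 0.246 and 0.910 in the ventricle. The SV and atrium overlapped and both lay above the BA and ventricle. The SV exceeded the ventricle 9.72-fold (log2 3.28 ± 0.64, adjusted p = 0.00251) in a stable call, with log2 values of 2.60 without WT SV replicate 1, 2.55 without WT ventricle replicate 1 and 4.57 without WT ventricle replicate 2. The atrium exceeded it 12.2-fold (adjusted p = 0.0127), a call lost without WT atrium replicate 1 or WT ventricle replicate 1 (log2 2.74 to 4.75). The BA was called below the atrium (adjusted p = 0.0312), which was lost without either BA library or WT atrium replicate 1 (log2 -2.49 to -1.67). The CPM of bmp7b was 1.17 and 2.94 in the BA, 0.595 and 0.885 in the SV, 0.0751 and 0.134 in the atrium and 0.786 and 0.117 in the ventricle. The BA was called above the atrium (adjusted p = 0.014), though not without WT BA replicate 2 or either atrium library (log2 3.52 to 5.14). The growth factor gene bmp3 had 15.1 and 11.1 CPM in the BA, 9.17 and 8.50 in the SV, 9.94 and 3.72 in the atrium and 0.540 and 3.35 in the ventricle. Both vessels were called above the ventricle (adjusted p = 0.0196 for the BA and 0.0414 for the SV). Both calls were lost without WT ventricle replicate 1, the first also without WT BA replicate 1 (log2 1.75 to 4.70) and the second without either SV library (log2 1.24 to 4.19) and at a mean CPM of at least 1. The ligand bmp16 was called in no comparison, with 20.8 and 93.7 CPM in the BA and 24.5 to 55.0 in the 6 libraries of the other WT tissues, and it made up 6.25% to 40.7% of the summed ligand FPKM.

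Of the 15 receptors tested, 6 were called in a comparison between WT tissues, where 49.4% of all genes were called in at least 1. The activin type I receptor gene acvr1ba had 177 and 75.5 CPM in the BA, 17.8 and 12.4 in the SV, 25.6 and 31.5 in the atrium and 18.8 and 34.5 in the ventricle. Both BA libraries stood above all others, both SV libraries lay below them, and the atrium and ventricle overlapped. It was 8.47-fold higher in the BA than in the SV (log2 3.08 ± 0.45, adjusted p = 0.00116) and 4.63-fold higher than in the ventricle (log2 2.21 ± 0.44, adjusted p = 0.0032), both stable. Without WT BA replicate 1 these log2 values were 2.32 and 1.44. The difference from the atrium (4.31-fold, adjusted p = 0.00582) was lost without WT BA replicate 1 or WT atrium replicate 1 (log2 1.33 to 2.58). The TGF-beta type II receptor gene tgfbr2a had 7.86 and 1.98 CPM in the BA and 0.300 and 0.964 in the atrium (adjusted p = 0.0186), a call lost without WT BA replicate 1 or WT atrium replicate 1 (log2 1.58 to 3.93). Its second copy tgfbr2b was at a higher level, 34.5 to 72.1 CPM in the WT libraries, and was not called.

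The 4 called receptor genes for BMP ligands had their lowest WT mean in the SV or, for bmpr1ba, in the BA. They were picked because they were called. Of all 46 members tested, 13 had their lowest WT mean in the SV, beside 24.7% of all genes. In the BA 6 members had it, beside 25.5% of all genes, and in the ventricle 20, beside 32.6%. The type I receptor gene bmpr1aa had 9.12 and 6.31 CPM in the SV, against 26.7 and 32.8 in the BA, 21.7 and 24.0 in the atrium and 10.3 and 18.4 in the ventricle, with both SV libraries below all others. The BA exceeded the SV 3.88-fold (adjusted p = 0.00689), a call lost without WT SV replicate 2 (log2 1.62 to 2.27). The atrium exceeded it 3.08-fold (adjusted p = 0.0146), a call lost without WT SV replicate 2 or either atrium library (log2 -1.94 to -1.32 for the SV minus atrium). The type II receptor gene bmpr2a had 1.65 and 1.51 CPM in the SV, 1.70 and 3.48 in the atrium, 5.87 and 3.62 in the BA and 5.63 and 6.17 in the ventricle. The SV was lowest here too, 3.99-fold below the ventricle (log2 -2.0 ± 0.45, adjusted p = 0.00601, stable). Its call below the BA (adjusted p = 0.0278) was lost without WT BA replicate 1 or either SV library (log2 1.19 to 1.92). For its copy bmpr2b the SV had 0.320 and 0.512 CPM and the ventricle 3.51 and 2.35 (adjusted p = 0.0178). This was lost without either SV library or WT ventricle replicate 1 (log2 -3.03 to -2.32). The type I receptor gene bmpr1ba was highest in the ventricle, at 3.02 and 5.17 CPM against 0.598 and 0.0520 in the BA and 0.869 and 0.419 in the SV. Its call against the BA (adjusted p = 0.0155) was lost without either ventricle library (log2 -6.42 to -2.89). That against the SV (adjusted p = 0.0355) was lost without any 1 library (log2 -3.53 to -2.34), without the RUVs factor, at a mean CPM of at least 1 and with DESeq2 size factors. The receptors not called between WT tissues were tgfbr1a, tgfbr1b, tgfbr2b, tgfbr3, bmpr1ab, acvr1l, acvr1bb, acvr2aa and acvrl1.

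Of 10 Smad genes, 5 were called between WT tissues, beside 49.4% of all genes, and the copies of smad3 moved in opposite directions between the BA and ventricle. The CPM of smad3a was 14.6 and 11.6 in the BA, 3.68 and 3.17 in the SV, 5.58 and 4.90 in the atrium and 2.16 and 4.34 in the ventricle. That of smad3b was 3.67 and 3.56 in the BA, 1.33 and 1.09 in the SV, 4.66 and 6.64 in the atrium and 12.6 and 10.8 in the ventricle. The BA was highest for smad3a and the ventricle for smad3b, with no overlap in either case. Between the BA and ventricle smad3a was 3.97-fold higher (log2 1.99 ± 0.40, adjusted p = 0.00329, stable, log2 2.62 without WT ventricle replicate 2) and smad3b 3.28-fold lower (log2 -1.71 ± 0.46, adjusted p = 0.0165). The latter call was lost without either BA library or WT ventricle replicate 1 (log2 -1.84 to -1.50). Between the SV and ventricle smad3b was 9.79-fold lower (log2 -3.29 ± 0.49, adjusted p = 0.000476, stable). Both copies were called above the SV in the BA, smad3a 3.86-fold (adjusted p = 0.00645) and smad3b 2.99-fold (adjusted p = 0.0347). The first call was lost without WT SV replicate 2 (log2 1.76 to 2.11) and the second without any 1 library (log2 1.37 to 1.74).

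Among the Smads of the BMP branch, smad9 had 119.7 and 114 CPM in the BA, 116 and 44.7 in the SV, 108 and 47.1 in the atrium and 35.3 and 24.6 in the ventricle. The ventricle lay below all other WT libraries. It was called 4.88-fold higher in the BA (log2 2.29 ± 0.42, adjusted p = 0.00218). This call held with each library left out but was lost with a replicate block in place of the RUVs factor (adjusted p = 0.0731 in edgeR). The SV exceeded it 3.38-fold (adjusted p = 0.0076), which was lost without WT SV replicate 1, WT ventricle replicate 1 (log2 1.0 to 2.23) or the RUVs factor. Of the inhibitory Smads, smad6a had 25.4 and 54.9 CPM in the BA and 14.3 and 13.4 in the ventricle (adjusted p = 0.0133), a call lost without WT BA replicate 2 or either ventricle library (log2 0.89 to 2.03). The inhibitory smad7 had 20.2 and 13.0 CPM in the SV, against 39.7 and 40.5 in the BA (adjusted p = 0.033) and 29.7 and 39.4 in the ventricle (adjusted p = 0.0306). The first call was lost without either BA library or WT SV replicate 2 (log2 0.91 to 1.69), the second without WT SV replicate 2 or either ventricle library (log2 -1.58 to -0.84), and both without the RUVs factor. The Smads not called were smad1, smad2, smad4a, smad5 and smad6b, and the common partner smad4a ranged from 1.4 to 3.71 CPM in the WT libraries.

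Of the 4 antagonists tested, fstb and nog2 were called between WT tissues, beside 49.4% of all genes. Follistatin, encoded by fsta and fstb, binds activins and some BMPs, and noggin binds BMPs. The CPM of fstb was 5.05 and 4.70 in the SV, 7.11 and 2.25 in the atrium, 1.14 and 1.92 in the BA and 0.393 and 0.352 in the ventricle, which was below every other WT library. The SV exceeded the ventricle 17.3-fold (log2 4.11 ± 0.67, adjusted p = 0.000801, stable, log2 3.44 without WT ventricle replicate 1). The atrium exceeded it 11.7-fold (adjusted p = 0.0132), a call lost without WT atrium replicate 1 or WT ventricle replicate 1 (log2 2.82 to 4.24). The BA exceeded it 5.28-fold (adjusted p = 0.0174), a call lost without WT BA replicate 2, either ventricle library (log2 1.72 to 2.79) or the RUVs factor. For nog2, CPM was 4.57 and 4.68 in the BA, 2.26 and 1.40 in the SV, 0.501 and 0.455 in the atrium and 0 and 0.382 in the ventricle, with no overlap between groups. The BA was called above the ventricle (adjusted p = 0.0186), and without WT ventricle replicate 1, which held no read, the log2 fold change was 3.57 and the call was lost.

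All 4 id genes were called in a comparison between WT tissues, beside 49.4% of all genes, each in its own pattern. The FPKM of id1 was 264.6 ± 113.8 in the SV, 171 ± 12.1 in the BA, 77.1 ± 20.1 in the ventricle and 70.9 ± 6.44 in the atrium (SD, n = 2), and id1 made up 39.1% to 76.6% of the summed FPKM of the 4 id genes. Its CPM was 326 and 182 in the SV, 161 and 189.9 in the BA, 76.0 and 71.4 in the atrium and 61.1 and 97.8 in the ventricle. The SV and BA overlapped and lay above both chambers. The SV was called 3.43-fold above the atrium (log2 1.78 ± 0.39, adjusted p = 0.00865) and 3.18-fold above the ventricle (log2 1.67 ± 0.39, adjusted p = 0.00718). The BA lay 2.37-fold and 2.2-fold above them (adjusted p = 0.046 and 0.0492). The SV calls were lost without WT SV replicate 1, either atrium library or WT ventricle replicate 1 (log2 1.17 to 2.17). The BA calls were lost without either BA library, either atrium library or WT ventricle replicate 1 (log2 0.77 to 1.57), the one against the ventricle also without the expression filter.

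The CPM of id3 was 175 and 84.1 in the BA, 68.5 and 26 in the SV, 31.1 and 20.7 in the atrium and 14.1 and 19.0 in the ventricle. The BA was highest, 8.14-fold above the ventricle (log2 3.02 ± 0.50, adjusted p = 0.00112, stable, log2 2.43 without WT BA replicate 1) and 5.34-fold above the atrium (adjusted p = 0.00541). The latter call was lost without WT atrium replicate 2 (log2 1.84 to 2.83). The SV was called above the ventricle (adjusted p = 0.024), which was lost without WT SV replicate 1 or WT ventricle replicate 1 (log2 0.75 to 2.12). The 2 copies of id2 were called in opposite directions between the SV and ventricle. The CPM of id2a was 8.72 and 18.0 in the ventricle, compared with 109 and 64.0 in the BA, 93.6 and 33.5 in the SV and 87.1 and 56.5 in the atrium, so the ventricle lay below all others. It was called higher in the BA (6.54-fold, adjusted p = 0.0065), the SV (4.82-fold, adjusted p = 0.0127) and the atrium (5.22-fold, adjusted p = 0.0465) than in the ventricle. All 3 calls were lost without WT ventricle replicate 1 (log2 1.97, 1.56 and 1.6). The second was also lost without WT SV replicate 1 (log2 1.35). The third was also lost without either atrium library (log2 2.09 and 2.69), without the RUVs factor, at a mean CPM of at least 1 and with DESeq2 size factors. The CPM of id2b was 36.7 and 17.1 in the SV, 52.1 and 84.9 in the atrium, 49.6 and 61.4 in the ventricle and 45.9 and 45.7 in the BA, with the SV lowest. It was called below the atrium (adjusted p = 0.0241) and the ventricle (adjusted p = 0.0414). The first call was lost without WT SV replicate 2 or WT atrium replicate 2 (log2 -2.07 to -0.88). The second was lost without WT SV replicate 2 or either ventricle library (log2 -1.80 to -0.63), without the RUVs factor, at a mean CPM of at least 1 and with DESeq2 size factors.

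**Figure D4:**
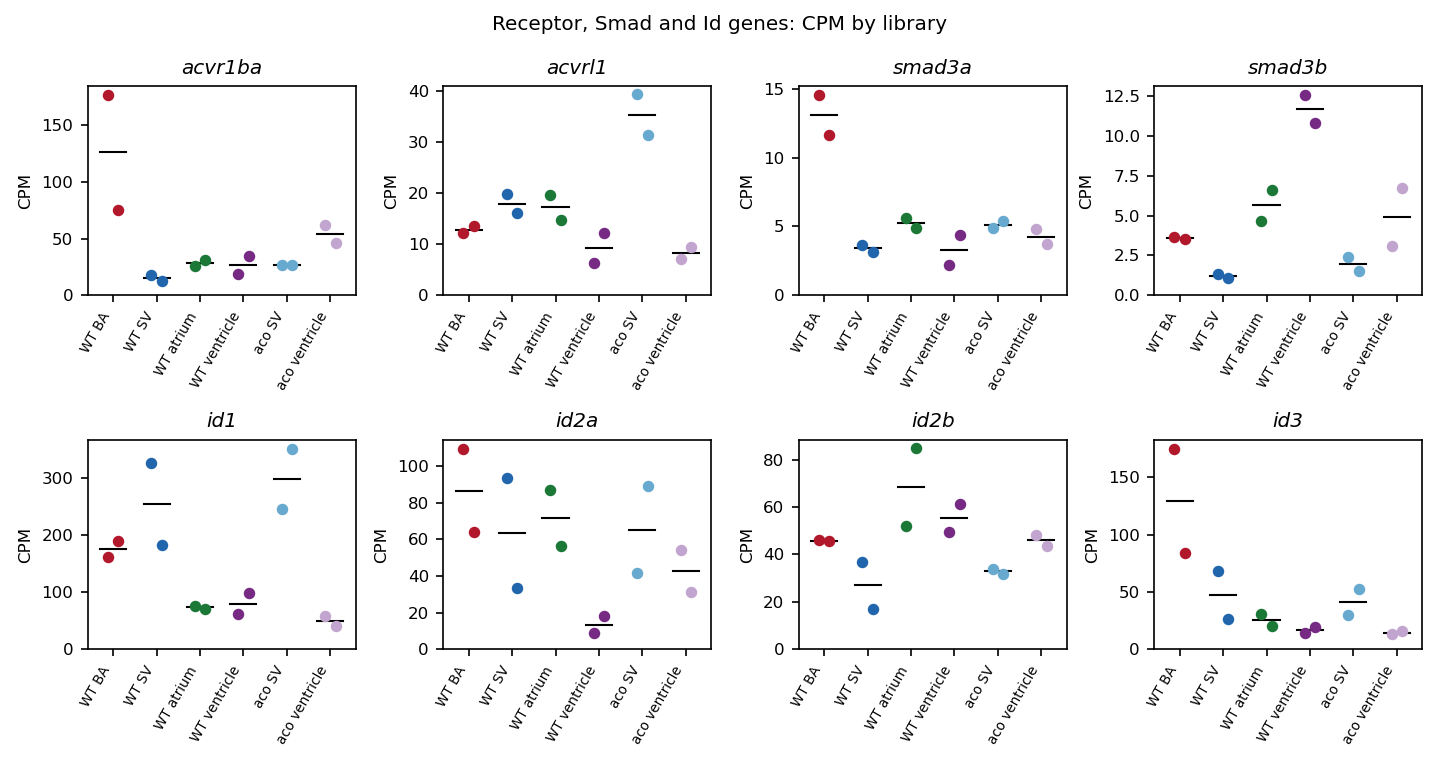
Points give the CPM of single libraries and black lines the mean of the 2 libraries in each group, for 2 receptor, 2 Smad and 4 id genes, on linear axes that start at 0 and differ between panels. The smad3a panel is highest in the BA and the smad3b panel in the WT ventricle, and in the acvrl1 panel the aco SV libraries are the highest, at 39.4 and 31.4 CPM.

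Between the aco SV and the WT SV, a comparison of the enlarged mutant chamber with its WT counterpart, bmp5 was the member called, and it was lower. Its CPM was 1.72 and 1.54 in the aco SV and 10.2 and 6.54 in the WT SV, with no overlap, as for 23.6% of all genes in this direction. The difference was 5.06-fold (log2 -2.34 ± 0.48, adjusted p = 0.0365). This was 1 of 46 members, where 1.54% of all genes were called. The call was lost without any 1 of the 4 libraries (log2 -2.69 to -2.0, adjusted p = 0.0728 to 0.226). The enterocyte markers summed to 1423 and 1479 CPM in the WT SV and to 5.20 and 4.69 in the aco SV, and their part in the result was not tested. The summed CPM of 6 fibroblast and epicardial markers was 1563 and 1200.5 in the aco SV against 469.8 and 499.7 in the WT SV, and 1 of the 6 was called higher. Most of the aco SV sum came from collagen genes, with col1a1a at 618 and 519 CPM and col1a2 at 787 and 587. In the same list pdgfra overlapped between the groups, while tcf21, tbx18 and postnb were higher in both aco SV libraries without overlap. In this direction 24% of all genes lay apart. For tcf21 CPM was 12.8 and 11.3 in the aco SV and 6.81 and 4.38 in the WT SV. The values were 6.94 and 2.46 against 1.67 and 1.09 for tbx18. They were 137 and 77.0 against 47.8 and 41.6 for postnb. Of the 6 markers, 4 had an unadjusted p below 0.05 in edgeR. Erythrocyte markers (3 found of 4) summed to 15696 and 19804 CPM in the aco SV and 42390 and 82517 in the WT SV, with 0 of 3 called by edgeR and 3 of 3 under an unadjusted 0.05. The endothelial type I receptor gene acvrl1, which mediates BMP9 and BMP10 signals in mammalian endothelium, had 39.4 and 31.4 CPM in the aco SV and 19.8 and 16.1 in the WT SV. Its log2 difference was 0.90 ± 0.37 (adjusted p = 0.299 in edgeR), and it was not called. Endothelial markers summed to 272.7 and 355.7 CPM in the aco SV and 297.1 and 207.1 in the WT SV. The median log2 fold change of the members was 0.28, compared with -0.01 for all genes, and 2 members had an unadjusted p below 0.05, beside 14% of all genes.

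**Figure D5:**
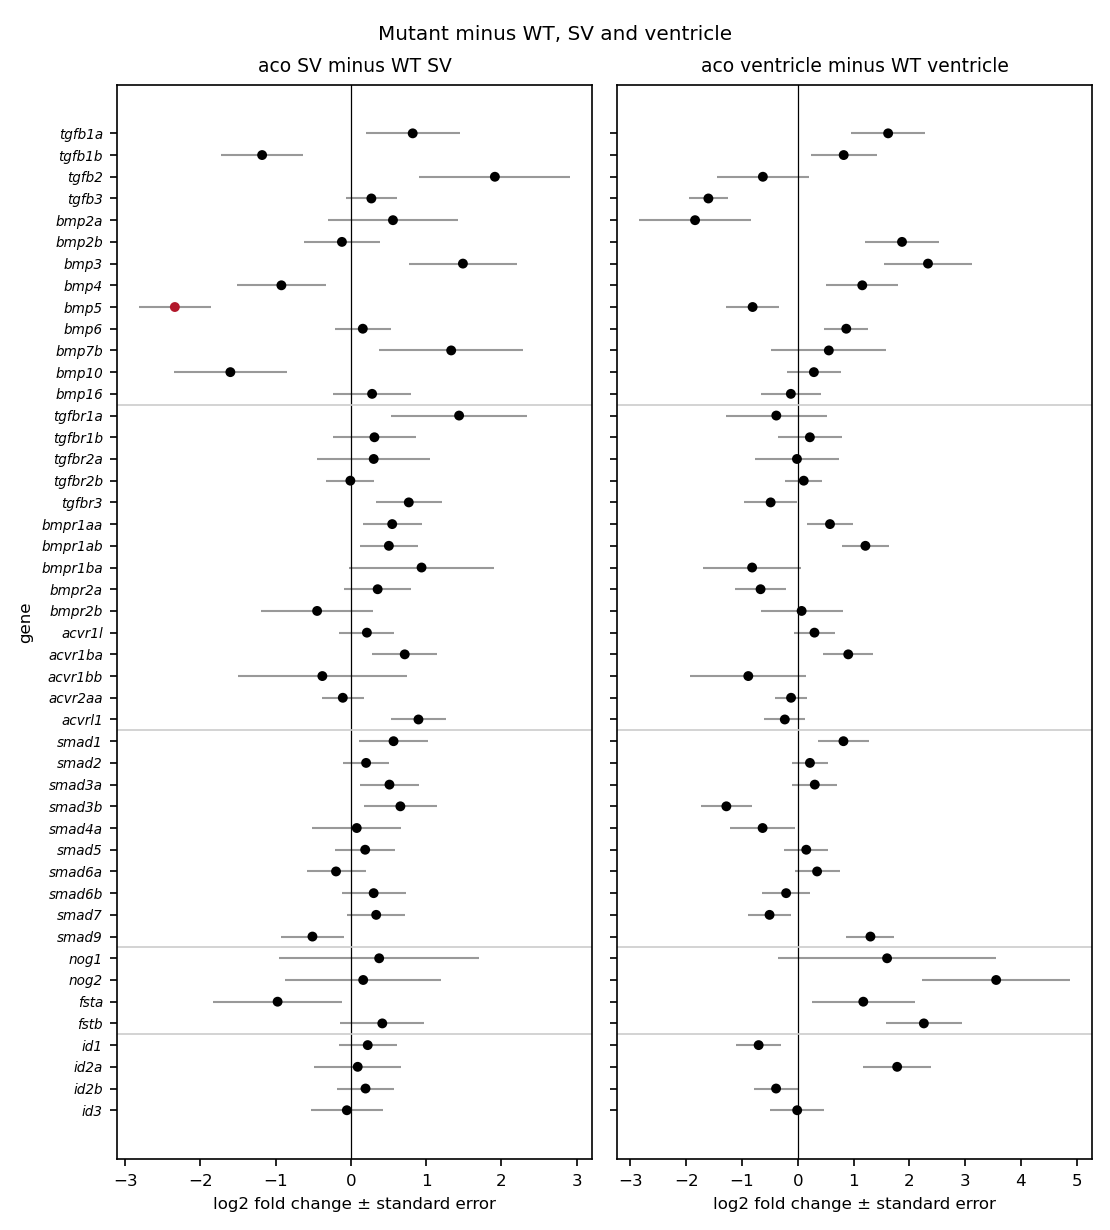
Points give the log2 fold change of each tested member between mutant and WT tissue, with lines of 1 standard error, for the SV on the left and the ventricle on the right, in rows grouped by role. The called member, bmp5 in the SV at -2.34, is in red, and the ventricle panel holds no called member, with tgfb3 at -1.60.

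Between the aco and WT ventricle, 0 of 46 members were called by edgeR, where 0.272% of all genes were called. At an unadjusted p below 0.05 there were 10 members, against 14.3% of all genes. DESeq2 called 2 of 46 members, tgfb3 and fstb, where it called 3.7% of all genes. The CPM of tgfb3 was 46.1 and 64.2 in the aco ventricle and 205 and 184 in the WT ventricle, without overlap, as for 23.5% of all genes in this direction. The difference was 3.04-fold (log2 -1.60 ± 0.35, adjusted p = 0.0805 in edgeR and 0.00127 in DESeq2). For fstb the values were 1.18 and 0.987 CPM in the aco ventricle and 0.393 and 0.352 in the WT ventricle (log2 2.26 ± 0.68, adjusted p = 0.183 in edgeR and 0.045 in DESeq2). Both fits held the RUVs factor, and without it the log2 value of fstb was 1.53 (adjusted p = 0.382 in edgeR). The other 8 members under an unadjusted 0.05 were tgfb1a, bmp2b, bmp3, bmpr1ab, smad9, nog2 and id2a, with higher values in the mutant, and smad3b, with lower values. Of these, nog2 overlapped between groups, at 5.78 and 0.356 CPM in the mutant and 0 and 0.382 in WT. Endothelial markers summed to 296.8 and 387.1 CPM in the aco ventricle and 722.8 and 572.0 in WT. Leukocyte markers summed to 36.4 and 39.0 against 12.6 and 19.1. Cardiomyocyte markers overlapped, at 30825 and 96909 against 83914 and 127856. Of these 3 lists edgeR called 0 markers. Their part in the results was not tested.

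The interaction test, which asked if genotype had unequal effects in the 2 tissues, called 0 of 46 members in edgeR, where 0.198% of all genes were called. At an unadjusted p below 0.05 there were 9 members (12.2% of all genes). DESeq2 called 1 member, tgfb3, where it called 3.03% of all genes. For tgfb3 the log2 effect of genotype was 1.88 ± 0.46 more positive in the SV than in the ventricle (adjusted p = 0.146 in edgeR, 0.00849 in DESeq2). Its aco and WT SV libraries overlapped, at 76.6 and 119 CPM against 118 and 61.3 CPM.

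Between the aco SV and the WT BA, 3 members were called, where 7.32% of all genes were. The ratio of bmp5 in the aco SV to the BA was 30.7 (95% counting interval 11.7 to 114.2, adjusted p = 0.00244), a stable call that rested on 4 reads in the BA. The aco SV was 5.15-fold below the BA for acvr1ba, at 26.4 and 26.7 CPM against 177 and 75.5 (log2 -2.37 ± 0.46, adjusted p = 0.012), a call lost without aco SV replicate 1 (log2 -2.87 to -1.62). It was 2.60-fold above the BA for acvrl1, at 39.4 and 31.4 CPM against 12.1 and 13.5 (log2 1.38 ± 0.38, adjusted p = 0.0495), a call lost without any 1 of the 4 libraries (log2 1.30 to 1.61). DESeq2 called 8 members in this comparison, where it called 13.4% of all genes. The WT BA and WT SV values of these 3 genes are given above, and both comparisons share the mutant SV libraries.

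A further 116 genes of the TGF-beta superfamily and its regulation were listed by role, of which 90 were found and 83 tested. In the BA, 31 of them were called against the SV (24 higher), 33 against the atrium (28 higher) and 33 against the ventricle (29 higher). These were 37.3%, 39.8% and 39.8% of the genes, beside 18.1%, 18.6% and 26.7% of all genes. Between the SV and atrium 24 were called (15 higher), or 28.9% against 20.6% of all genes. Between the SV and ventricle 37 were called (23 higher), or 44.6% against 35.7%, and between the atrium and ventricle 4 (2 higher), or 4.82% against 5.11%. Of 13 listed targets, 10 were called above the ventricle in the BA, and none below it, where 13.8% of all genes were called higher and 12.9% lower. This was the comparison with the most targets called. Against the SV, 3 targets were higher in the BA (8.69% of all genes) and 1 was lower (9.37%). Against the atrium 7 were higher (8.46%) and 1 lower (10.1%). In the SV 6 were called above the ventricle (19.4%) and 0 below it (16.2%). Among the 83 genes, ctgfb, a matricellular protein gene, had the largest called rise in the BA relative to the SV. The CPM of ctgfb was 1.93 and 8.79 in the BA and 0.206 and 0.233 in the SV (log2 4.61 ± 0.79, adjusted p = 0.00283). The 2 BA libraries held unequal amounts of ctgfb, and both lay above both SV libraries. Lower in the BA were itgb6, an integrin subunit that activates latent TGF-beta, and the ligand gene gdf10b, neither with a read in the BA. Against a floor of 3 reads per library, itgb6 was at least 13.36-fold higher and gdf10b at least 4.627-fold higher in the SV (adjusted p = 0.0169 and 0.0331). With WT SV replicate 1 alone the bound for itgb6 was 22.4-fold, and with replicate 2 alone 4.38-fold. The aco SV libraries, where the enterocyte markers were also near 0, held 0 and 4 reads of itgb6, and the part of these markers in the result was not tested. The call of itgb6 was lost without either BA library, WT SV replicate 1 or the RUVs factor, and that of gdf10b without any 1 library.

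Between the BA and ventricle, the BMP ligand gene gdf6a had 25 and 42 reads in the BA and none in the ventricle (adjusted p = 0.0054). Against the same floor it was at least 10.955-fold higher in the BA. With WT BA replicate 1 alone the bound was 8.40-fold, and with replicate 2 alone 13.5-fold. The ventricle was higher for mstnb, a myostatin gene that restrains muscle growth, at 3.49 and 2.26 CPM against 2 reads and 0 in the BA (adjusted p = 0.00443), and for tll1, a metalloproteinase that cleaves chordin, at 1.67 and 2.79 CPM against 0.109 and 0.130 in the BA (log2 -4.30 ± 0.70, adjusted p = 0.000984). All 3 calls held with each library left out. In the mutant SV, 2 of the 83 genes (2.41%) were called against the WT SV, beside 1.54% of all genes. The Id family gene id4 had 0.366 and 0.433 CPM in the aco SV and 5.65 and 3.54 in the WT SV (log2 -3.57 ± 0.57, adjusted p = 0.0107), lost without either aco SV library (log2 -3.38 and -3.81). The WT atrium had 18.9 and 13.7 CPM of id4. The enterocyte markers given above were also far lower in the aco SV than in the WT SV, and their part in the id4 result was not tested. The latent TGF-beta binding protein gene ltbp1, whose product holds TGF-beta in the matrix, had 48.6 and 36.1 CPM in the aco SV and 7.07 and 7.29 in the WT SV (log2 2.22 ± 0.40, adjusted p = 0.0202), which was lost without either WT SV library (log2 2.29 and 2.13) or the RUVs factor (log2 2.56). The BA had 31.3 and 34.9 CPM of ltbp1. The sum of the fibroblast and epicardial markers given above, most of it from collagen genes, was also higher in both aco SV libraries. The part of these markers in the ltbp1 result was not tested. In the ventricle nbl1, an antagonist of BMP ligands chosen for mention after its values were seen, was the gene called, at 10.2 and 12.2 CPM in the mutant and 2.46 and 1.14 in WT (log2 3.56 ± 0.43, adjusted p = 0.0104). The call was lost without either WT ventricle library (log2 3.26 and 2.95) or the RUVs factor (log2 2.63). It was 1 of 83 genes, where 0.272% of all genes were called. Between the aco SV and the WT BA 13 were called (5 higher, 8 lower), or 15.7% against 7.32% of all genes.

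The members without a test were few and low. The ligand gene bmp7a reached 19 reads, in WT BA replicate 2, and at most 2 reads elsewhere. The receptor gene bmpr1bb reached 4 reads and the noggin gene nog3 16 reads, in WT ventricle replicate 1. The symbols acvr2ba, eng, grem2b and chrd were not among the table's gene names, and acvr2b and chd, older symbols of acvr2ba and chrd in RefSeq, were not counted as members. For acvr2b the BA had 2.45 and 4.42 CPM and the aco SV 0.710 and 0.867, and this was a call in edgeR (log2 -2.26 ± 0.56, adjusted p = 0.0331). Whether the acvr2b call held under the alternatives or with a library left out was not checked. The antagonist nog1, although tested, had at most 24 reads.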

How the data were processed

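Bulk RNA-seq counts of 12 libraries were analysed. The authors trimmed reads with cutadapt, aligned uniquely mapped reads with STAR to danRer11 and counted them on genes with featureCounts, and the deposited counts are not normalized. The deposited table also holds normalized values whose unit is not given in the sources used here. These deposited values were read as FPKM because the authors made each from the count with 1 factor per gene and 1 per library, and were used only to compare levels between genes. Its columns of fold changes and p-values from the authors' own comparisons were not used. The labels say that single-end and paired-end libraries were sequenced, and the batch of each library is not given in the sources used here.

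Genes were filtered with filterByExpr, scaled by TMM and fitted with edgeR 4.0.16 (R 4.3.3) in 1 quasi-likelihood model of 6 groups and 1 RUVs factor. The weight of every filtered gene in this factor came from deviations within the groups. The value of each library came from its difference to the mean of all 12 libraries, so the factor could differ between groups. It was 1.72 and -0.38 in the WT ventricle and -1.09 and 0.23 in the aco ventricle. Fold changes between groups were adjusted for it. Of the gene names, 13 are dates and were kept. Log2 fold changes and two-sided p-values come from this fit, with 5 residual degrees of freedom. Each standard error was derived as the absolute log2 fold change divided by the square root of its F statistic. As nothing states that libraries of a group came from separate clutches, p-values concern only these pools. They measure the spread between pools that was left after the RUVs factor was fitted. With the factor edgeR called 295 genes in the aco SV minus WT SV and 52 in the aco ventricle minus WT ventricle. Without it the numbers were 138 and 4. Replicate counts differed beyond sampling noise throughout (chi-square per degree of freedom 184.0 to 317.2). Intervals (95%) of read ratios cover counting error only. The code was tested on simulated data. The members and lists were chosen with earlier results of these data known. Members described are those with the largest changes in each role among those called, up to 6 per role, those called between genotypes or between the aco SV and the WT BA, and copies called in opposite directions, and tgfb1a, tgfb1b, tgfb3, bmp3, bmp4 and bmp6 were added after their values were seen. Of the other pathway genes, the 2 largest changes in each direction in 3 comparisons are named, except 1 gene not reported here. Alternatives were no RUVs factor, a replicate block, DESeq2 1.42.0, a minimum mean CPM of 1 or no filter, size factors from DESeq2, and each library left out. Figures were drawn with matplotlib 3.10.9.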

Additional observations from a re-analysis of the deposited data

How the results depend on the processing

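None of the 78 calls of members reversed under any alternative, 44 were made under each of the 6 alternatives that tested the gene, and 24 also with each library left out. With a replicate block in place of the RUVs factor 34 of the 78 calls were lost, and these losses are named by gene only for smad9. With this block the share of all genes called fell too, in the WT BA minus WT SV from 18.1% to 8.69%. The number of members called with the block was 5 there and 7 for the WT BA minus WT atrium (12.5% of all genes). It was 4 for the WT SV minus WT atrium (12.7%) and 12 for the WT SV minus WT ventricle (25.4%). It was 1 for the WT atrium minus WT ventricle (1.02%) and 0 for the aco SV minus WT SV (0.319%). Same-numbered libraries correlated in their deviations with r from -0.50 to 0.18, over 0.1 in 3 of 15 pairs, so the numbers were not taken as pairs. With a crossed replicate block, chosen after seeing the data, 0 members were called in the aco SV minus WT SV. In the aco ventricle minus WT ventricle 0 members were called with it. The share of all genes called with the crossed block was not counted. DESeq2 called 17 members in the WT BA minus WT SV (23.7% of all genes) and 9 in the WT atrium minus WT ventricle (12%). It called 2 in the aco ventricle minus WT ventricle (3.7%), 8 in the aco SV minus WT BA (13.4%) and 1 in the interaction (3.03%). With each library left out, the range was 2 to 10 for the WT BA minus WT SV, 5 to 11 for the WT BA minus WT atrium, 9 to 18 for the WT BA minus WT ventricle, 1 to 4 for the WT SV minus WT atrium, 9 to 19 for the WT SV minus WT ventricle, 0 to 5 for the WT atrium minus WT ventricle, 0 to 0 for the aco SV minus WT SV and 2 to 5 for the aco SV minus WT BA. The shares of all genes called in the fits without a library were not counted, and the cause was not tested. With DESeq2 size factors the SV minus ventricle calls were 13 higher and 6 lower, against 11 and 9, and the median of all genes there moved to 0.29. Alternatives for other named genes, except acvr2b, were added after seeing the data.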
